A study of Mus musculus with 6 samples.

Results

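The SLC25 family of mitochondrial carriers and the 2 subunits of the mitochondrial pyruvate carrier were examined in brown adipose tissue (BAT). Members were the genes whose symbol is Slc25a followed by a number, Mpc1 or Mpc2 and whose counts summed to at least 10 over the 6 libraries, which gave 46 genes out of 35976 listed. A further 3 genes matched the names with fewer counts (Slc25a21, Slc25a41 and Slc25a54) and were left out. The libraries came from 3 sST2-KO mice and 3 WT littermates on a C57BL/6J background, all male and 10 weeks old. In sST2-KO mice the stretch between exons 8 and 9 of Il1rl1 had been removed with CRISPR/Cas9, which ends the making of the secreted receptor sST2 and leaves the membrane form ST2L. All 6 mice had undergone surgical denervation of BAT, a stay of 7 days at 30 °C and then 8 h at 10 °C, so no innervated and no unexposed tissue was compared. The comparison asks how the loss of sST2 changes gene expression in denervated BAT during cold.

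The inner mitochondrial membrane is closed to most metabolites, and SLC25 proteins are the carriers that let them cross. Each is built from repeats of a pair of membrane helices and usually exchanges a substrate on one side for another on the other side. The ADP/ATP carriers and the phosphate carrier feed ATP synthase, the carnitine/acylcarnitine carrier brings fatty acids to β-oxidation, and other members move keto acids, amino acids, nucleotides and cofactors. UCP1, the uncoupling protein by which brown adipocytes make heat, is a homolog of the same family. Mpc1 and Mpc2 are not SLC25 proteins but form the dimer through which pyruvate enters the matrix.

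The deposited counts per gene symbol summed to between 8159442 and 12874809 per library. Levels are normalized CPM (counts scaled to library size with TMM factors), listed for single mice in the order of replicates 1 to 3. The groups were compared gene by gene with the quasi-likelihood test of edgeR, and p values were adjusted after Benjamini and Hochberg over the 14542 genes that passed the expression filter. Il1rl1 had 19, 19 and 6 counts in the 3 WT mice and 55, 69 and 142 in the 3 sST2-KO mice (log2 fold change 2.56, adjusted p = 0.0239), and since sST2 and ST2L are counted together these numbers do not check the genotype. Of the 10 brown adipocyte markers 7 were called lower (adjusted p below 0.05), against 9.10% of all genes tested. These markers were present in every group, summing to between 8432 and 15663 CPM in WT and between 373 and 1967 CPM in sST2-KO libraries. Markers of other cell types set some libraries apart, and several sums separated the groups altogether. T cell markers summed to between 13.9 and 15.5 CPM in WT and between 123 and 151 CPM in sST2-KO libraries. General adipocyte markers summed to between 19583 and 24425 CPM against 7033 to 14034 CPM, and neutrophil markers to between 31.9 and 137 CPM against 151 to 731 CPM. Sums for B cells, endothelial cells and fibroblasts overlapped. The 11 hepatocyte markers listed summed to 5900 CPM in WT replicate 2 and to at most 52.7 CPM elsewhere. The 15 skeletal muscle markers summed to 1466, 126 and 58.4 CPM in WT mice and to 7431, 4108 and 17085 CPM in the 3 sST2-KO mice. The 10 macrophage markers summed to between 876 and 1198 CPM in WT and between 1621 and 6671 CPM in sST2-KO libraries, highest in replicate 3, where mitochondrially encoded genes also took 6.80% of the counts against 11.8% to 16.6% in the other 5 libraries. In such bulk tissue, fewer brown adipocytes and less RNA per brown adipocyte cannot be told apart.

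The carriers as a family made up less of the RNA of sST2-KO mice. Their summed level was 4783, 5285 and 6631 CPM in the 3 WT mice and 2457, 2744 and 2418 CPM in the 3 sST2-KO mice, with no overlap between the groups. The means were 5566 ± 956 CPM (SD, n = 3) and 2540 ± 178 CPM (SD, n = 3), a ratio of 0.456. The brown adipocyte markers, given above, were lower in the same libraries, and the part of brown adipocyte number in this and the following differences was not tested.

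Levels were compared between carriers per kilobase of the canonical transcript. In WT mice the most abundant was Slc25a5, an ADP/ATP carrier, at 369 ± 43.6 CPM per kb (SD, n = 3). Mpc2 followed at 270.3 ± 104, the carnitine/acylcarnitine carrier Slc25a20 at 239.7 ± 40.8, the NAD carrier Slc25a51 at 196 ± 45.4 and Mpc1 at 196 ± 52.2 CPM per kb. Slc25a4, the second ADP/ATP carrier, had 178 ± 29.2 and Slc25a3, the phosphate carrier, 177 ± 32.3 CPM per kb. Neighbours in this order differed by less than the larger of their SDs. In sST2-KO mice Slc25a5 was still highest, at 230.2 ± 31.9 CPM per kb (SD, n = 3), but Slc25a3 (146 ± 19.9) and Slc25a4 (134 ± 26.5) now came next, followed by Mpc1 (64.8 ± 8.52). Slc25a51, Mpc2 and Slc25a20 had 50.2 ± 15.9, 49.8 ± 9.61 and 42.2 ± 11.5 CPM per kb. Slc25a42, a carrier of coenzyme A, went from rank 14 to rank 29 of the 46 members.

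The make-up of the carrier transcripts differed between the groups. Slc25a3, Slc25a4 and Slc25a5, grouped after their values were seen, together held 30.5%, 28.6% and 27.8% of the family's CPM per kb in WT replicates 1 to 3. Their share was 41.7%, 44.6% and 52.5% in the 3 sST2-KO mice, above every WT library. Their summed level was itself not higher, with 725 ± 102 CPM per kb (SD, n = 3) in WT mice and 510.5 ± 58.1 in sST2-KO mice. Some less abundant carriers gained more in proportion. Slc25a28 went from 0.891% to 2.21% of the family's CPM per kb on average, and Slc25a25 from 0.915% to 2.38%. The groups overlapped in Slc25a25, with 0.416%, 1.59% and 0.739% in WT and 1.42%, 2.94% and 2.78% in sST2-KO libraries. The levels of Slc25a28 and Slc25a25 were themselves not called different (adjusted p = 0.689 and 0.809 by edgeR). Other less abundant carriers lost share on average, such as Slc25a42, from 2.33% to 0.449%, and Slc25a34, from 1.16% to 0.679%. In Slc25a34 the groups overlapped, with 1.09%, 1.13% and 1.28% in WT and 1.21%, 0.531% and 0.295% in sST2-KO libraries. Within the sST2-KO libraries the share of Slc25a4, at 11.7%, 9.46% and 15.5%, had the order of the skeletal muscle markers, whose part in it was not tested.

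**Figure D1:**
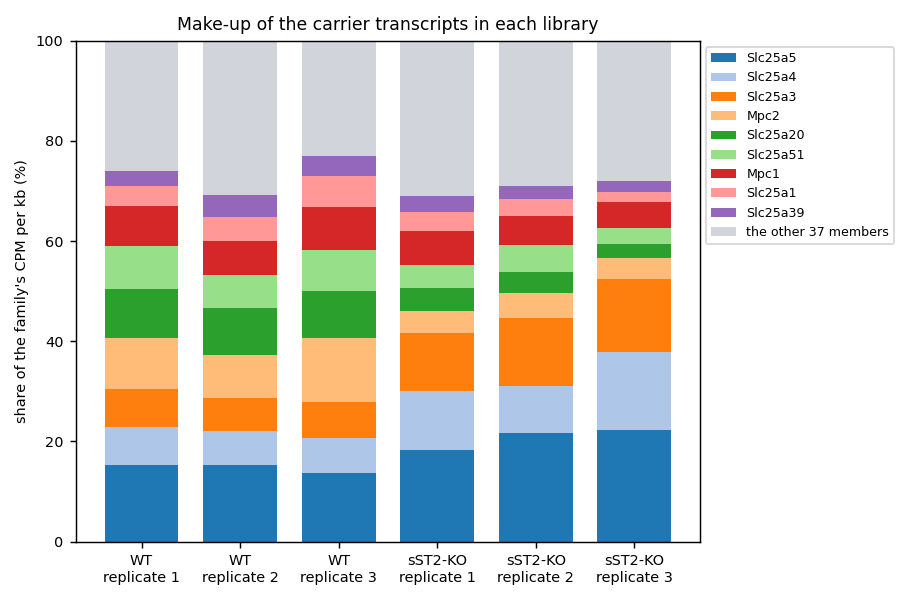
Share of each carrier in the family's summed CPM per kb of transcript (vertical axis, percent), in each of the 6 libraries; 9 of the most abundant carriers of WT mice are coloured and the other 37 members are grey. The 3 lowest segments, Slc25a5, Slc25a4 and Slc25a3, reach 27.8% to 30.5% in WT and 41.7% to 52.5% in sST2-KO libraries.

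Of the 46 members, 43 passed the expression filter and were tested, and Slc25a2, Slc25a31 and Slc25a43 did not pass, with at most 1.38 CPM in any library. With an adjusted p below 0.05, 16 carriers were lower and 1 was higher in sST2-KO mice, where 9.10% of all genes tested were lower and 10.5% were higher. More than 2-fold, 14 were lower and 1 was higher, against 7.10% and 9.04% of all genes. The median log2 fold change was -0.77 over the members and 0.034 over all genes tested. In 20 of the 43 carriers the highest sST2-KO value was below the lowest WT value, against 19.7% of all genes tested. In 5 of the 43 the lowest sST2-KO value was above the highest WT value, against 21.8% of all genes tested. The calls depended on single libraries. Slc25a42, Slc25a20 and Mpc2 were called whichever library was left out, and without WT replicate 3 they were the only members called. Without WT replicate 1 or 2, 14 and 11 carriers were lower and 0 were higher, and without each sST2-KO library in turn between 12 and 15 were lower. With a replicate block for the replicate numbers 0 carriers were called either way, although 19 lower and 4 higher ones had an unadjusted p under 0.05, and 0 of all genes tested were called in that fit.

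**Figure D2:**
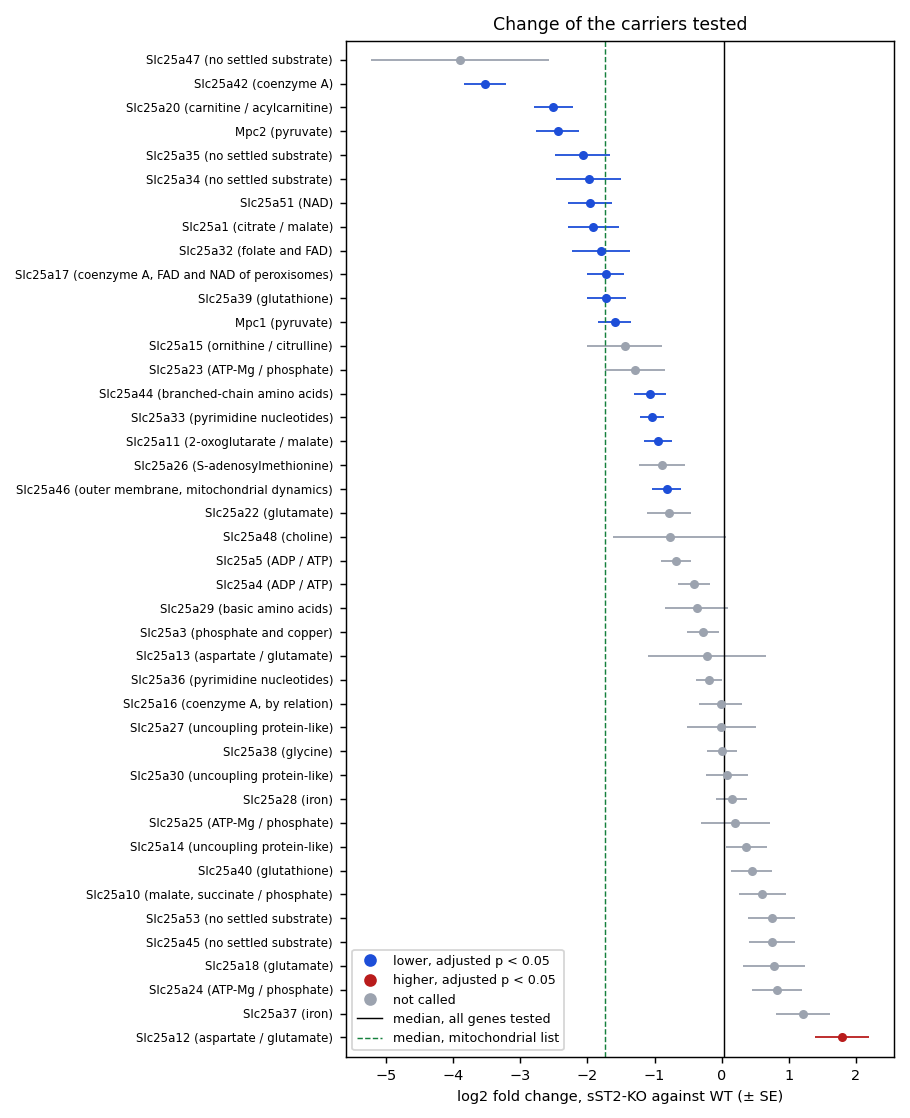
Log2 fold change of sST2-KO against WT (horizontal axis) with its standard error for 42 of the 43 carriers tested, ordered by size and labelled with the substrate; colours give the call at an adjusted p of 0.05. The 15 lower carriers shown lie between -3.53 and -0.82, around the median of a list of 34 nuclear-encoded mitochondrial genes (dashed, -1.74). The 26 carriers not called lie between -3.90 and 1.21, on either side of the median of all genes (solid, 0.034).

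The largest called fall was in Slc25a42, which brings coenzyme A into the matrix and lies on the minus strand of chromosome 8 (GRCm39, 70636988 to 70664966). It had 196, 155 and 204 CPM in the 3 WT mice and 16.9, 21.4 and 10.1 CPM in the 3 sST2-KO mice. The groups were far apart, with means of 185 ± 26.2 and 16.1 ± 5.68 CPM (SD, n = 3). The log2 fold change was -3.53 ± 0.31 (SE, adjusted p = 0.00831 by edgeR), an 11.5-fold lower level. Leaving out single libraries gave values from -3.80 to -3.28. Of the other 6 cofactor carriers tested, 4 were lower, against 9.10% of all genes, among them Slc25a51, Slc25a32 and Slc25a17. Slc25a51, which imports NAD, fell from 809, 706 and 1095 CPM to 223, 293 and 152 CPM in replicates 1 to 3, a log2 fold change of -1.97 ± 0.32 (SE, adjusted p = 0.0149). Slc25a32, linked to folate and FAD, and the peroxisomal carrier Slc25a17 had log2 fold changes of -1.80 and -1.73 (adjusted p = 0.0293 and 0.0143), and the call of Slc25a32 was lost without WT replicate 1 or 3 or sST2-KO replicate 2 or 3. The cofactor carriers that were not called were Slc25a26 and Slc25a16. Slc25a26, which imports S-adenosylmethionine, had a log2 fold change of -0.89 ± 0.34 (SE, adjusted p = 0.106). It shares 19.6% of its exonic bases with Lrig1 on the opposite strand. Slc25a16, a relative of Slc25a42, had 27.5 ± 5.05 CPM in WT and 27.2 ± 11.8 CPM in sST2-KO mice (SD, n = 3).

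The carriers of fatty acids and of pyruvate, fuels that BAT burns, were lower in all 3 of their genes. Of all genes tested, 9.10% were lower. Slc25a20, the only carrier of acylcarnitines and so the entry of long-chain fatty acids into β-oxidation, lies on the plus strand of chromosome 9 of the same build, from 108539250 to 108562760. It had 377, 395 and 511 CPM in the 3 WT mice and 87.5, 86.6 and 51.5 CPM in the 3 sST2-KO mice. That was a log2 fold change of -2.51 ± 0.28 (SE, adjusted p = 0.00932) and a 5.68-fold lower level. The pyruvate carrier changed in both subunits. Mpc2, on chromosome 1 from 165287125 to 165308785, had 299, 286 and 542 CPM in WT and 63.2, 84.5 and 59.8 CPM in sST2-KO libraries (log2 fold change -2.44 ± 0.32 SE, adjusted p = 0.0122). Mpc1, on chromosome 17 from 8501736 to 8516498, had 194, 180.5 and 288 CPM against 80.4, 76.8 and 62.2 CPM (log2 fold change -1.59 ± 0.25 SE, adjusted p = 0.0136). In all 3 genes the lowest WT value was more than 2-fold the highest sST2-KO value. Of the 100-base windows of the longest Mpc1 transcript, 35.3% also occur in other annotated genes, among them the pseudogene Mpc1-ps, so its level is less certain than its neighbours'.

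Among carriers of di- and tricarboxylates, Slc25a1, which exports citrate for lipid synthesis in the cytosol, fell from 161, 211 and 356 CPM to 76.5, 76.3 and 40.2 CPM (log2 fold change -1.91 ± 0.38 SE, adjusted p = 0.0186). Its lowest WT library was still above its highest sST2-KO library. Slc25a11, the 2-oxoglutarate/malate carrier of the malate-aspartate shuttle, was lower by a smaller amount (log2 fold change -0.95 ± 0.21 SE, adjusted p = 0.0241), a call lost without WT replicate 2 or 3 or sST2-KO replicate 1 or 2. Slc25a10, the dicarboxylate carrier, had 18.8 ± 4.25 CPM in WT and 28.6 ± 13.6 CPM in sST2-KO mice (SD, n = 3) and was not called (adjusted p = 0.259).

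**Figure D3:**
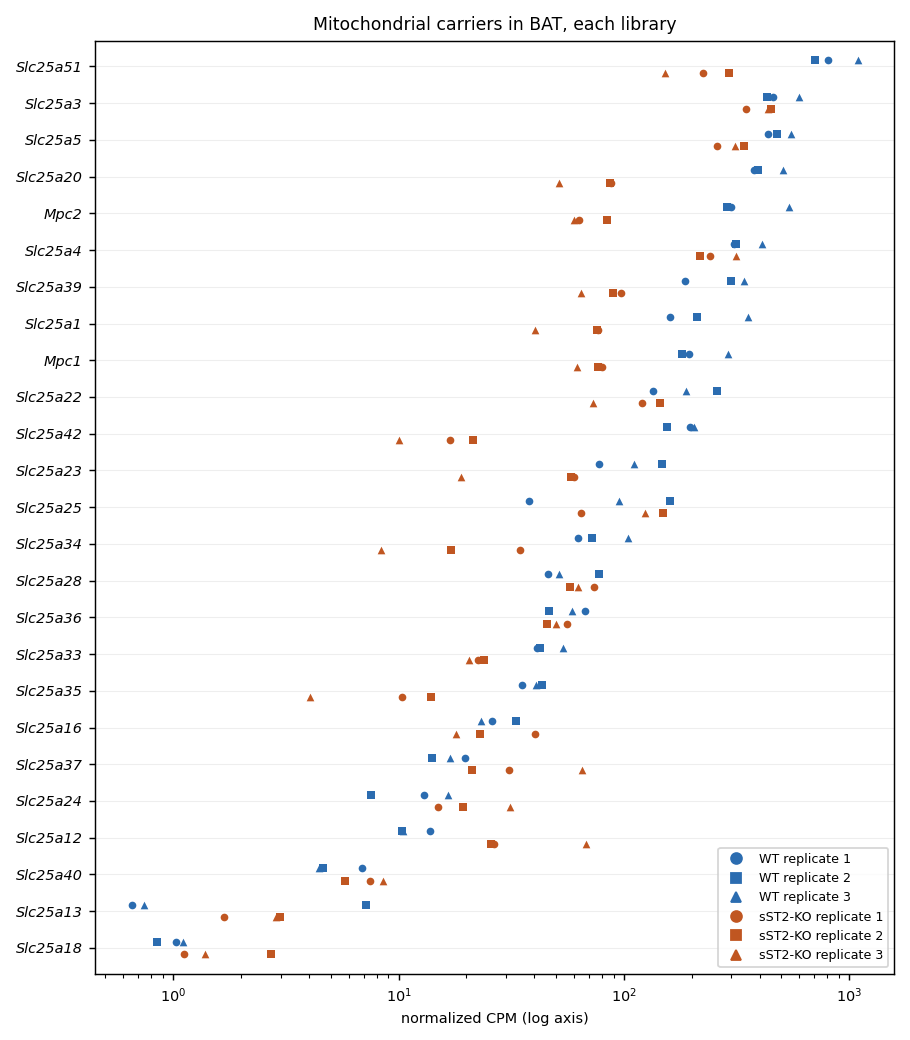
Normalized CPM (horizontal log axis) of 25 carriers chosen for their level, change or close relatives, in each library; blue points are WT and orange points sST2-KO replicates 1 to 3. Slc25a42, Slc25a20, Mpc2 and Slc25a51 show a wide gap between the groups, while the points of Slc25a3, Slc25a4, Slc25a28 and Slc25a36 overlap.

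None of the 6 tested carriers of adenine nucleotides and phosphate was called by edgeR, and their median log2 fold change was -0.34. Of all genes tested, 9.10% were called lower and 10.5% higher. Slc25a3, which supplies phosphate to ATP synthase and copper to cytochrome c oxidase, had 460, 430.5 and 599.8 CPM in the 3 WT mice and 347, 449 and 435 CPM in the 3 sST2-KO mice. The groups overlapped (log2 fold change -0.28 ± 0.24 SE, adjusted p = 0.444). Slc25a4, the ADP/ATP carrier that is also the main form of muscle, had 307, 315 and 409 CPM against 241, 218 and 315 CPM (log2 fold change -0.41 ± 0.24 SE, adjusted p = 0.252), again with overlapping groups. Its highest and lowest sST2-KO values were in the libraries with the highest and lowest sum of muscle markers among these mice. In WT mice its highest value was where those markers were lowest, and its lowest value where they were highest. The part of muscle RNA in its level was not tested. Slc25a5, the ADP/ATP carrier of most other cells, had 436, 480.4 and 550.2 CPM against 259, 343 and 312 CPM. Here all sST2-KO values were below all WT values, with a log2 fold change of -0.68 ± 0.22 (SE) that did not pass in edgeR (adjusted p = 0.0670) and passed in DESeq2 (adjusted p = 0.0113). The ATP-Mg/phosphate carriers, which set the size of the adenine nucleotide pool of the matrix, gave values on either side of 0. Slc25a23 had a log2 fold change of -1.29 ± 0.45 (SE, adjusted p = 0.0794 in edgeR and 0.0213 in DESeq2), Slc25a24 of 0.82 ± 0.38 (SE, adjusted p = 0.160) and Slc25a25 of 0.20 ± 0.52 (SE, adjusted p = 0.809). Slc25a25 varied widely within groups, with 37.9, 161 and 95.2 CPM in WT and 64.3, 149 and 125 CPM in sST2-KO libraries. With 3 mice a group, missing the threshold does not show that these carriers were unchanged.

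Of the 46 members, 36 had a promoter window in the RefSeq table used, which covers 250 bases before to 50 after a start site on GRCm38.p6. The windows were searched on both strands for the cAMP response element TGACGTCA, the NRF1 site (GCGCA, any base, GCGC) and the ERR site TNAAGGTCA, motifs of regulators of brown fat and mitochondrial genes. The first was found in Slc25a25 and Slc25a36 (2.03% of all genes with a window hold it), the second in Slc25a3 and Slc25a31 (5.19% of all genes), and the third in 0 members (1.43% of all genes). Among the 10 members called lower that have a window, 0 held any of these letters. The stretches below show the matches in carriers described here, from the strand of the gene and with the match in capitals. They lie at chr2:32424184-32424241, chr9:97111170-97111227 and chr10:91124147-91124206 of GRCm38.p6, all on the minus strand.
Slc25a25: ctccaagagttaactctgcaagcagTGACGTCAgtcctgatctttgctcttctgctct
Slc25a36: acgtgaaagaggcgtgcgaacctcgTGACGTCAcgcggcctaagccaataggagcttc
Slc25a3: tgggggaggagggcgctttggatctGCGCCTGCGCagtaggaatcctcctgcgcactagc
In Slc25a3 the match is to the NRF1 letters read on the other strand. A match is a description of the sequence and no evidence of binding.

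Of the 8 amino acid carriers tested 1 was called higher, 1 lower and 6 neither, close to the 10.5% and 9.10% of all genes. Slc25a12, an aspartate/glutamate carrier of excitable tissues and muscle that lies on chromosome 2 from 71101407 to 71198167, was the 1 member called higher. It had 13.8, 10.4 and 10.5 CPM in the 3 WT mice and 26.6, 25.6 and 67.9 CPM in the 3 sST2-KO mice. All sST2-KO libraries lay above all WT libraries, and replicate 3 lay far above the others. The log2 fold change was 1.79 ± 0.41 (SE, adjusted p = 0.0260). Without sST2-KO replicate 3 it was 1.17 (adjusted p = 0.0304), and without WT replicate 1, 2 or 3 the adjusted p was 0.0510, 0.0830 and 0.106. As in the sum of the 15 skeletal muscle markers, WT replicate 1 was the highest WT library and sST2-KO replicate 3 the highest of all, and the part of muscle RNA in the result was not tested. Slc25a44, which imports branched-chain amino acids and has been tied to their use by brown fat, fell from 81.7, 86.7 and 103 CPM to 47.4, 51.4 and 30.8 CPM (log2 fold change -1.07 ± 0.23 SE, adjusted p = 0.0232), with an adjusted p of 0.0637 and 0.0968 without WT replicate 2 and 3. The glutamate carrier Slc25a22 had 194 ± 62.3 CPM in WT and 113 ± 36.6 CPM in sST2-KO mice (SD, n = 3, adjusted p = 0.133). Slc25a38, which imports glycine for heme synthesis, had 23.7 ± 2.94 and 23.6 ± 5.49 CPM (SD, n = 3).

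Members that are liver genes stood out in WT replicate 2, the library with high hepatocyte markers. Slc25a47, a carrier of liver, had 3.64, 148 and 8.01 CPM in the 3 WT mice and 3.83, 4.63 and 2.27 CPM in the 3 sST2-KO mice. Its log2 fold change of -3.90 (adjusted p = 0.0768) became -0.70 without that library (adjusted p = 0.379). Slc25a15, the ornithine/citrulline carrier of the urea cycle, had 10.4, 43.3 and 11.0 CPM against 8.22, 7.36 and 8.20 CPM, and its log2 fold change went from -1.44 to -0.43 without WT replicate 2. Slc25a13, the aspartate/glutamate carrier of liver, had 0.653, 7.16 and 0.740 CPM against 1.67, 2.97 and 2.86 CPM, and its log2 fold change turned from -0.22 to 1.82 (adjusted p = 0.0762). The part of liver RNA in these values was not tested. With all 6 libraries and the expression filter, 0 of the 3 were called by edgeR, while Slc25a47 passed without a filter (adjusted p = 0.0466) and without WT replicate 1 (adjusted p = 0.0453) and Slc25a15 passed in DESeq2 (adjusted p = 0.0409).

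**Figure D4:**
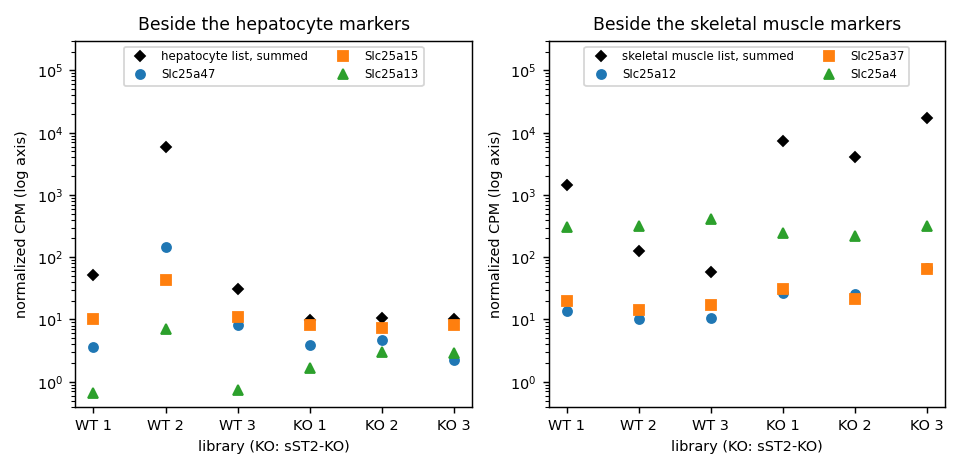
Normalized CPM (vertical log axis) of carriers in each library beside the summed markers of hepatocytes (left) and skeletal muscle (right), shown as black diamonds. The hepatocyte markers, Slc25a47, Slc25a15 and Slc25a13 all have their highest value in WT replicate 2, while Slc25a12 and Slc25a37 have theirs, like the muscle markers, in sST2-KO replicate 3. Slc25a4, also shown on the right, has its highest value in WT replicate 3.

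Of the 4 carriers of iron and glutathione 1 was called lower and 0 higher, against 9.10% and 10.5% of all genes tested. Slc25a39, which imports glutathione, fell from 187, 298 and 341 CPM to 97.0, 89.1 and 64.3 CPM (log2 fold change -1.72 ± 0.29 SE, adjusted p = 0.0150), and shares 17.3% of its exonic bases with Rundc3a on the opposite strand. Its relative Slc25a40 had 5.32 ± 1.37 and 7.25 ± 1.35 CPM (SD, n = 3, adjusted p = 0.325). Of the mitoferrins, which import iron, Slc25a28 had 58.4 ± 16.5 and 64.6 ± 7.99 CPM (adjusted p = 0.689). It shares 16.3% of its exonic bases with BC037704 on the opposite strand. Slc25a37, the mitoferrin of blood-forming cells, had 19.7, 14.0 and 16.9 CPM in WT and 31.0, 21.1 and 65.4 CPM in sST2-KO libraries. This carrier shares 23.6% of its exonic bases with Gm63459 on the opposite strand. Its groups did not overlap, and its log2 fold change of 1.21 ± 0.40 (SE) did not pass in edgeR (adjusted p = 0.0721) and passed in DESeq2 (adjusted p = 0.0301), with total counts (adjusted p = 0.0477) and without sST2-KO replicate 2 (adjusted p = 0.0402). The erythrocyte markers went the other way, from between 485 and 1587 CPM in WT to between 11.2 and 108 CPM in sST2-KO libraries, and the macrophage markers were, like Slc25a37, highest in sST2-KO replicate 3. The part of either cell type in the level of Slc25a37 was not tested.

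Among the remaining carriers, Slc25a33, a pyrimidine nucleotide carrier, fell from 41.2, 42.4 and 53.9 CPM to 22.5, 24.0 and 20.5 CPM (log2 fold change -1.04 ± 0.18 SE, adjusted p = 0.0154). Its relative Slc25a36 had 67.2, 46.6 and 58.8 CPM against 56.0, 45.8 and 49.97 CPM, with overlapping groups (adjusted p = 0.529). Slc25a46, an outer membrane protein that acts in mitochondrial dynamics, had a log2 fold change of -0.82 ± 0.22 (SE, adjusted p = 0.0375), a call kept only without sST2-KO replicate 1 among the 6 fits that left out a library, and lost with total counts (log2 fold change -0.56, adjusted p = 0.122). Slc25a34 and Slc25a35, a related pair with no settled substrate, fell with log2 fold changes of -1.98 and -2.07 (adjusted p = 0.0307 and 0.0184), though 26.0% of the exonic bases of Slc25a35 overlap Rangrf on the opposite strand. Without WT replicate 2 or 3 neither of the pair was called, and Slc25a34 was also not called without WT replicate 1 or sST2-KO replicate 2. The uncoupling protein-like members Slc25a14, Slc25a27 and Slc25a30 had at most 8.21 CPM in any library and log2 fold changes of 0.36, -0.0047 and 0.079, and 0 of the 3 were called. Slc25a48, the choline carrier, had 0.840, 2.92 and 1.60 CPM against 2.16, 0.712 and 0.0987 CPM, too few reads to show a difference (adjusted p = 0.547). Slc25a29, a carrier of basic amino acids, and Slc25a45 and Slc25a53, which have no settled substrate here, had log2 fold changes of -0.37, 0.75 and 0.75 and were not called.

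To see which carriers moved more or less than a chosen set of mitochondrial genes, the libraries were scaled by a list. It holds 34 nuclear-encoded genes, mostly of the respiratory chain, TCA cycle, protein import and mitochondrial expression, and no carrier. All 34 genes of this list were called lower in sST2-KO mice by TMM scaling, against 9.10% of all genes tested. Their median log2 fold change was -1.74. It was -0.49 over the 10 outer membrane genes and -0.39 over the 18 other inner membrane transporters described below. The list therefore does not stand for mitochondrial genes in general. Relative to the list 86.3% of all genes tested were higher and 0.468% were lower, and of the 43 carriers 26 were higher, 1 was lower and 16 did not pass the test. Slc25a42 was the 1 member that fell beyond the list, with a relative log2 fold change of -1.67 ± 0.42 (SE, adjusted p = 0.00210 by edgeR). Several fuel and cofactor carriers lay close to it. The relative log2 fold changes were -0.58 ± 0.40 (SE) for Slc25a20, -0.43 ± 0.41 for Mpc2, -0.053 ± 0.39 for Slc25a51, 0.062 ± 0.39 for Slc25a1, 0.27 ± 0.40 for Slc25a39 and 0.40 ± 0.41 for Mpc1. A test that these values miss does not show that the carriers moved as the list did. The carriers of ATP synthase substrates were called higher relative to the list, as most genes were, with relative log2 fold changes of 1.74 (adjusted p = 0.00189) for Slc25a3, 1.67 (adjusted p = 0.00357) for Slc25a4 and 1.32 (adjusted p = 0.00863) for Slc25a5. These values lay below the relative median of all genes tested, 1.999.

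Related carriers were also set against each other within each library, as ratios on which the scaling of the library has little bearing. In 6 of the 10 pairs the ratios of the 2 groups did not overlap. Each of these gave the smallest p that 3 mice against 3 allow (exact two-sided permutation test, p = 0.1, adjusted p = 0.167 over 10 pairs). Among single genes tested, 19.7% lay without overlap below WT and 21.8% above it. The share over all pairs of genes was not computed. The ratio of Slc25a16 to Slc25a42 was 0.135, 0.215 and 0.116 in the 3 WT mice and 2.36, 1.08 and 1.75 in the 3 sST2-KO mice, an 11.0-fold shift. The ratio of Mpc1 to Mpc2, whose proteins form a dimer, was 0.648, 0.632 and 0.533 in WT and 1.27, 0.909 and 1.04 in sST2-KO libraries. The ratio of Slc25a33 to Slc25a36 was 0.617, 0.912 and 0.917 against 0.408, 0.528 and 0.417. The ratio of Slc25a39 to Slc25a40 was 25.3, 58.4 and 69.2 against 12.3, 14.2 and 7.20, and that of Slc25a23 to Slc25a24 was 5.79, 18.5 and 6.56 against 3.93, 2.98 and 0.609. The sixth pair, Slc25a22 to Slc25a18, rests on 9 to 23 counts of Slc25a18, which also shares 24.4% of its exonic bases with Atp6v1e1. Ratios of Slc25a4 to Slc25a5 overlapped, with 0.706, 0.657 and 0.743 in WT and 0.930, 0.636 and 1.01 in sST2-KO libraries (exact permutation p = 0.4), as did those of Slc25a12 to Slc25a13, Slc25a28 to Slc25a37 and Slc25a25 to Slc25a24.

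**Figure D5:**
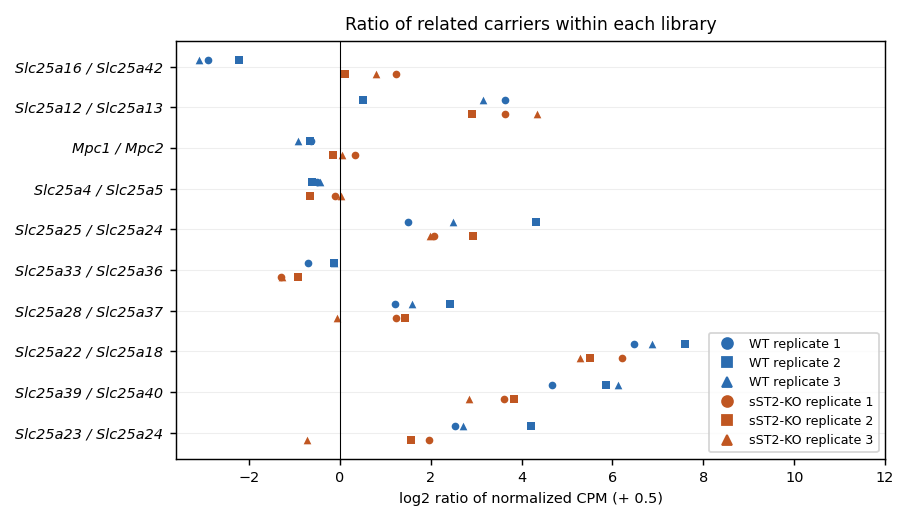
Log2 ratio of the normalized CPM of 2 related carriers (horizontal axis, 0.5 added to each) within each library; blue points are WT and orange points sST2-KO replicates 1 to 3. The ratio of Slc25a16 to Slc25a42 moves from below 0 to above 0, and that of Slc25a4 to Slc25a5 overlaps between the groups.

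Enzymes of pathways around the carriers were read from a list of 25 genes. Of these, 15 were lower and 0 were higher at an adjusted p under 0.05, against 9.10% and 10.5% of all genes tested. The 15 include Gpd1 and Gpd2, which are tied to no carrier here and had log2 fold changes of -2.30 and -2.62. Next to Slc25a20 acts Cpt2, which frees acyl groups from carnitine in the matrix and had a log2 fold change of -2.07 (adjusted p = 0.0150), carnitine acetyltransferase Crat with -1.92 (adjusted p = 0.0150) and Cpt1b of the outer membrane with -2.16 (adjusted p = 0.0288). The liver form Cpt1a had 0.60 (adjusted p = 0.212). Beside the pyruvate carrier, the pyruvate dehydrogenase subunits Pdha1 and Pdhb had -1.47 and -1.998 (adjusted p = 0.0227 and 0.0154) and pyruvate carboxylase, Pcx, -1.64 (adjusted p = 0.0277). Acly, which cleaves the citrate exported by Slc25a1, had -1.25 (adjusted p = 0.0176). In the malate-aspartate shuttle Mdh1 and Mdh2 fell by 1.62 and 1.95 on the log2 scale (adjusted p = 0.0154 and 0.0136), while the transaminases Got1 and Got2 had log2 fold changes of -0.26 and 0.44 (adjusted p = 0.682 and 0.453). Got1 and Got2 were highest among WT libraries in replicate 2, where hepatocyte markers were high. Among sST2-KO libraries both were highest in replicate 3, where muscle markers were highest. The part of liver and muscle RNA in their levels was not tested. Beside Slc25a44, Bckdha and Bckdhb of branched-chain keto acid oxidation had -1.88 and -1.32 and the transaminase Bcat2 -0.73, all with an adjusted p of at most 0.0386. The serine and folate enzymes Shmt2 and Mthfd2, beside the folate carrier Slc25a32, had 0.10 and 0.42 (adjusted p = 0.795 and 0.358).

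Other membrane proteins of mitochondria were read from 3 further lists. Of all genes tested, 9.10% were called lower and 10.5% higher. Of 18 other inner membrane transporters tested, 5 were lower and 0 were higher. The lower ones were Abcb8, Letm1, Ghitm, Mrs2 and Smdt1, with log2 fold changes from -1.83 to -0.80. The calcium uniporter Mcu had a log2 fold change of 0.35 and was not called (adjusted p = 0.294). Of 10 outer membrane genes 3 were lower (Tomm40, Tomm70a and Mtx2) and the porins Vdac1, Vdac2 and Vdac3, with log2 fold changes of -0.31, -0.61 and -0.33, were not called (adjusted p of 0.0712 at least). Among 5 homologs of the carriers that bear other names 4 were lower. Ucp1 had a log2 fold change of -4.04 (adjusted p = 0.0226), Mtch2 of -1.47 (adjusted p = 0.0170), Ucp3 of -1.33 (adjusted p = 0.0482) and Mtch1 of -0.94 (adjusted p = 0.0433). Ucp2, a form abundant in immune cells, had 465 CPM in WT and 525 CPM in sST2-KO mice on average (log2 fold change 0.18, adjusted p = 0.693).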

How the data were processed

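Poly-A-selected libraries from BAT of 3 WT and 3 sST2-KO mice were sequenced as 150 bp paired-end reads. The authors checked reads with FastQC 0.12.1, aligned them to mm39 with HISAT2 2.2.1 (versions from the submitters' processing notes) and deposited htseq-count counts per gene symbol, without normalization. The annotation and the use of strand in counting are not given in the sources used here, so genes that overlap on opposite strands may share reads. Samples were grouped by their titles, and 0 columns of values were left unused. Each library was taken as 1 mouse, after the study's statement of 3 mice per group.

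The analysis used edgeR 4.0.16 under R 4.3.3: filterByExpr left 14542 genes, libraries were scaled by TMM (factors 0.825 to 1.14) and compared by the quasi-likelihood test (common biological coefficient of variation 0.325) with Benjamini-Hochberg adjustment over all genes tested. The standard error is the log2 fold change divided by the square root of F. Calls needed an adjusted p below 0.05, and the study's methods add a 2-fold minimum. The relative comparison replaced TMM by the summed counts of 34 mitochondrial genes, and fold changes of low genes depend on edgeR's prior count. Replicates differed beyond counting noise (chi-square over degrees of freedom 36.7 to 104). Ratios of pairs were log2 of CPM plus 0.5, compared by exact permutation. Levels per kilobase used the canonical GENCODE transcript on GRCm39. Results were recomputed with DESeq2 1.42.0, total counts, RLE factors, other filters, robust estimation, a replicate block, unadjusted p values and each library left out. The steps were tested on simulated data. Values in every library are given for the 10 members of highest WT CPM, the called members with the 8 largest falls and rises (mean log2 CPM of at least 1) and the 10 related pairs, and for others named after their values were seen. Members and lists were chosen with earlier results of these data known. Some genes counted in the totals are not reported here by name, and amino acid sequences were not analysed here. Figures were drawn with matplotlib 3.10.9.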

Additional observations from a re-analysis of the deposited data

How the results depend on the processing

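The 16 lower carriers were between 15 and 19 with DESeq2, total counts, RLE factors, robust estimation, no filter or a minimum of 10 counts in every sample. The 1 higher carrier became 2, also past 2-fold, with DESeq2 and total counts, and 2 with unadjusted p values. With the replicate block 0 were higher and 0 were lower, at any fold and past 2-fold, with 2 residual degrees of freedom, and 0 of all genes tested were called. Mice that share a number did not deviate together (correlations of -0.062, 0.22 and -0.32), so the numbers were not taken as pairs. With a library left out, the higher carriers ranged from 0 to 2 at any fold and past 2-fold, the lower ones from 3 to 15 and past 2-fold from 3 to 14, and the lowest counts came without WT replicate 3. All genes fell in number there as well, to 36 higher and 22 lower. The median of the members, -0.77, was -0.57 with DESeq2, -0.50 with total counts and -0.55 without a filter, and lay between -0.83 and -0.48 when single libraries were left out. Total counts moved the median of all genes to 0.29. Relative to the mitochondrial list the 1 lower carrier became 2 without a filter and with at least 10 counts in every sample, and was 1 to 2 when single libraries were left out.

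Some carriers near 0 changed direction and were not called in either setting. With total counts Slc25a36 was 0.075, Slc25a16 0.24 and Slc25a13 0.034. With at least 10 counts in every sample Slc25a16 was 0.014, and with the replicate block Slc25a13 was 0.51. With a library left out, Slc25a16 ranged from -0.42 to 0.20, Slc25a25 from -0.19 to 0.76, Slc25a28 from -0.0029 to 0.40 and Slc25a13 from -0.70 to 1.82. Relative to the list, the ranges were -0.18 to 0.12 for Slc25a51, -0.051 to 0.18 for Slc25a1 and -0.69 to 0.17 for Slc25a34. The causes of these changes were not tested. Protein lengths and identities were planned and not run. The depth limits Slc25a13, Slc25a18, Slc25a29, Slc25a48 and Slc25a53, with at most 76 counts in a library.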
